A study of Mus musculus with 86 samples.

Results

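Hspa5, Hsp90b1, Calr, Ppib, Manf, Herpud1 and Asns are genes of protein folding and stress in the endoplasmic reticulum (ER), and they were followed here across liver, thymus, spleen and brain of mice with 1 targeted allele of Dll1, a ligand of the Notch receptors. All probes carrying these symbols in the platform annotation were taken, each separately, which gave 11 of the 20794 probes and 7 of the 9030 gene symbols on the array. Hspa5, Hsp90b1, Calr, Ppib and Manf were chosen from their ratios in C3H liver, so their C3H liver values are a description and carry no test. Which values drew in Herpud1 and Asns is not recorded, and their liver values in both strains are treated in the same way.

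The study set male heterozygous Dll1tm1Gos mice, in which a lacZ insertion disrupts 1 copy of Dll1 in every cell, against a wild-type pool matched for strain and organ on 2-colour cDNA arrays, 86 in all. In the C3H line, which had been outcrossed to C3HeB/FeJ and so can keep sequence of its strain of origin around the allele, the heterozygous mice were 15 weeks old, and 5 mice gave 10 arrays each for liver, thymus and brain and 9 for spleen. In 129SvJ/Iso the heterozygous mice were 16 weeks old, with 4 mice on 12 arrays for liver, 5 on 15 for spleen, 4 on 14 for brain, and for thymus 6 arrays of 1 heterozygous pool of 4 mice. The other channel always held a wild-type pool, of 5 mice in C3H and of 4 in 129SvJ/Iso per the labels, so the spread between wild-type mice was not measured, and p-values below speak of the spread between heterozygous mice. Dye swaps were included in every group. The arrays give ratios and no levels, so neither the organ labels nor the order of the genes by abundance was checked here.

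A value below is a log2 ratio of heterozygous over wild-type RNA, first averaged over the arrays of a mouse, and then given as mean ± SD over mice. The sources do not name the numerator. Heterozygous over wild type is the likely direction, because genes that the study names as lower in heterozygous C3H mice were below 0 here. In liver, 7 of the 12 listed besides Manf were matched, and 7 of these 7 were below 0 (median −0.83). In thymus it was 9 of 9 (median −0.50), and the study's thymus list is longer than these 9. Manf was kept out of the liver count, since it is on the liver list itself, and its own direction is not independent of the study. The 129SvJ/Iso arrays were less complete, with 21.9% to 27% of spot values unusable against 3.06% to 10.2% in C3H, and a probe was tested only where at least 3 mice had a value.

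Secreted and membrane proteins fold in the ER. When unfolded proteins build up there, the sensors Ire1, Perk and Atf6 start the unfolded protein response, which raises chaperones, widens the disposal of misfolded proteins and slows protein synthesis. Hepatocytes, which secrete most plasma proteins, and plasma cells rely heavily on this system. Hspa5 (BiP) is the Hsp70 chaperone of the ER and holds the sensors inactive, Hsp90b1 (Grp94) is its Hsp90 chaperone, Calr (calreticulin) binds calcium and sugar-bearing folding proteins, and Ppib (cyclophilin B) turns prolyl bonds. Manf is an ER protein that is secreted under stress, Herpud1 helps to draw misfolded proteins out of the ER for degradation, and Asns makes asparagine and is a classic target of Atf4, which both Perk and the lack of amino acids switch on.

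The promoters are shown because several of these genes are textbook targets of the stress response through short DNA elements. The ER stress element, ERSE, is CCAAT, any 9 bases and CCACG, ERSE-II is ATTGG, any 1 base and CCACG, the core of the UPR element is TGACGTG, and the C/EBP-Atf response element, CARE, is TGATGNAAN. Both strands were searched in the 250 bases before the start site, in RefSeq sequence of build GRCm38.p6, which held 6 of the 7 genes. ERSE was found in 0.122% of all 27025 promoters, ERSE-II in 0.0333%, the UPR element core in 1.61% and CARE in 3.51%. Capitals below mark the matches, and no matches within a promoter overlap each other.
Hspa5, chr2:34771840-34772089, + strand: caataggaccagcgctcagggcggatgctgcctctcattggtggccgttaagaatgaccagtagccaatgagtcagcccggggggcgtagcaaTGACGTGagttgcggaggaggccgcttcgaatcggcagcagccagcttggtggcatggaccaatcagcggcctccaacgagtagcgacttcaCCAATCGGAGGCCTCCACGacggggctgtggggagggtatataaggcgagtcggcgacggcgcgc
Hsp90b1, chr10:86705445-86705694, − strand: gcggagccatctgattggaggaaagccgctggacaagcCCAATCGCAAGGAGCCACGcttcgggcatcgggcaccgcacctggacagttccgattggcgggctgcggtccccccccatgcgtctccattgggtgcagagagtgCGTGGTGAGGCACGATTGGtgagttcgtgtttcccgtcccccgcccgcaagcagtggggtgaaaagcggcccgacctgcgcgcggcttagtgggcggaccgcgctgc
Calr, chr8:84846932-84847181, − strand: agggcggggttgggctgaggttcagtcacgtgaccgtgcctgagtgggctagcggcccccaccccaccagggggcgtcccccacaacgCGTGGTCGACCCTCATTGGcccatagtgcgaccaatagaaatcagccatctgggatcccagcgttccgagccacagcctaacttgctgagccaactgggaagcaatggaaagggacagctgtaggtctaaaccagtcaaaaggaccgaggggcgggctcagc
Herpud1, chr8:94386179-94386428, + strand: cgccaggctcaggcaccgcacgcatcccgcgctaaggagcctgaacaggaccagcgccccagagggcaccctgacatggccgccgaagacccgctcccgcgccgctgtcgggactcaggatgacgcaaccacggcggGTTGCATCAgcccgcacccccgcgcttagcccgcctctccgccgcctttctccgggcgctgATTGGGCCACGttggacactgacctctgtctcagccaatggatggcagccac
Asns, chr6:7693210-7693459, − strand: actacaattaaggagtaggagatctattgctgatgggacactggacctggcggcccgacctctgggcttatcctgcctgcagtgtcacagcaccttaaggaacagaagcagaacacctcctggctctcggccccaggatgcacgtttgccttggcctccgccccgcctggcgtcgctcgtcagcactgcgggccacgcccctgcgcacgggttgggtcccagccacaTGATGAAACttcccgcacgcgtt

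Hspa5 held a UPR element core from −157 to −151 and an ERSE from −65 to −47, counted from the start site. Hsp90b1 held an ERSE on each strand, from −212 to −194 and from −107 to −89. Calr held 1 ERSE, from −162 to −144 on the opposite strand. Herpud1 held a CARE from −113 to −105 on the opposite strand and an ERSE-II from −52 to −42, and Asns a CARE from −23 to −15. The matching window of Ppib, chr9:66059919-66060168, had none of these letters. Whether a factor was bound at any of these matches was not measured.

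In C3H liver the major chaperones lay below wild type while Asns did not. Hspa5 (gene at chr2:34772090-34776529, probe 10919) had ratios of −0.28, −1.50, −1.21 and −0.80 in mice 2 to 5, with no value in mouse 1. Its mean of −0.95 ± 0.53 (SD, n = 4) is 0.519 of the wild-type level. All 4 mice were below 0, with mouse 2 nearest to it.

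Hsp90b1 (chr10:86690841-86705444, probe 19760) had −1.12, −0.13, −1.21, −1.07 and −0.32 in C3H mice 1 to 5, and Calr (chr8:84842088-84846931, probe 16104) had −0.70, −0.16, −0.87, −0.83 and −0.39. The means were −0.77 ± 0.51 and −0.59 ± 0.31 (SD, n = 5 each), and every mouse was below 0 for both genes. Mice 2 and 5 had the smallest shifts, again for both. Among probes with a value in all 5 C3H livers, 6.24% lay below 0 in every mouse, and since these values chose the genes, nothing is read from that share.

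The 2 probes of Ppib (chr9:66060169-66066629) gave opposite answers in C3H liver. Probe 6363 read 0.40, 0.12, 0.27, 0.22 and 0.24 in mice 1 to 5, a mean of 0.25 ± 0.10 (SD, n = 5). Probe 15796 read −1.01, −0.67, −1.36 and −0.21 in mice 1, 3, 4 and 5, a mean of −0.81 ± 0.49 (SD, n = 4). The ranges do not overlap. Where each probe lies on the transcript was not used here, so the level of Ppib in C3H liver is unsettled.

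The 4 probes of Manf (chr9:106888753-106891938) disagreed too. Probe 5241 had −1.37, 0.08, −0.91, −0.81 and −0.68 in C3H mice 1 to 5, and probe 19966 had −1.01, 0.14, −0.84, −1.51 and −0.64. In both, mouse 2 was the only mouse above 0. Probe 14323 spread from −2.17 to 0.54 around a mean of −0.69 ± 0.999 (SD, n = 5), and probe 16089 stayed near 0, at 0.09 ± 0.34 (SD, n = 4).

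Asns (chr6:7675165-7693209, probe 12225) had 0.18, −0.25, 0.03, 0.20 and 0.13 in C3H mice 1 to 5, a mean of 0.06 ± 0.19 (SD, n = 5), in a liver where the chaperones were low. Herpud1 (chr8:94386429-94395371, probe 17892) had only 3 usable mice there, at −0.22, 1.76 and −1.27, and gives no usable level.

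**Figure D1:**
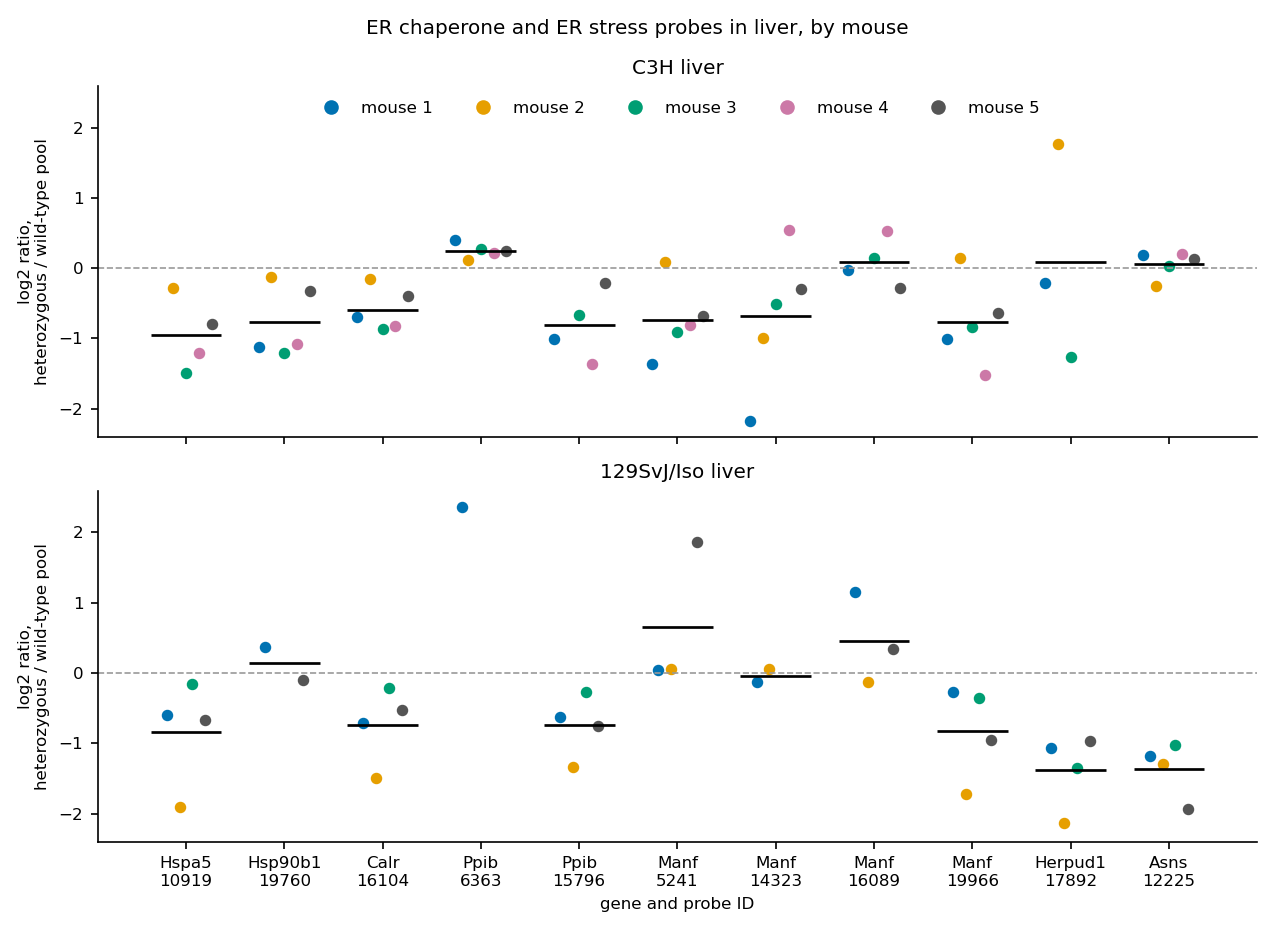
Log2 ratio of heterozygous over wild-type RNA for the 11 probes in C3H liver (top) and 129SvJ/Iso liver (bottom), with 1 point per mouse and a black line at the mean. In C3H liver all mice lay below 0 for Hspa5, Hsp90b1, Calr and Ppib probe 15796 and above 0 for Ppib probe 6363, while in 129SvJ/Iso liver Herpud1 and Asns had the lowest means, −1.38 and −1.36.

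The livers of 129SvJ/Iso gave a second look at the chaperones in other mice. Hspa5 had −0.60, −1.91, −0.15 and −0.67 in mice 1, 2, 3 and 5. Calr had −0.71, −1.49, −0.21 and −0.53, and Ppib probe 15796 had −0.62, −1.33, −0.27 and −0.75. All 3 probes were below 0 in all 4 mice, with mouse 2 lowest and mouse 3 highest each time.

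Manf probe 19966 had −0.27, −1.72, −0.35 and −0.95 in the same mice, and was below 0 in all 4 as well. Manf probes 5241 and 16089 lay on the other side, at 0.65 ± 1.04 and 0.46 ± 0.65 (SD, n = 3 each, adjusted p = 0.526 and 0.596 in limma). Hsp90b1 had 2 usable mice (0.37 and −0.09), Ppib probe 6363 had 1 (2.36) and Manf probe 14323 had 2 (−0.13 and 0.06), so none of these was tested.

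None of the 6 tested probes of Hspa5, Calr, Ppib and Manf passed in 129SvJ/Iso liver. The means were −0.83 ± 0.75 for Hspa5, −0.73 ± 0.54 for Calr, −0.74 ± 0.44 for Ppib probe 15796 and −0.82 ± 0.67 for Manf probe 19966 (SD, n = 4 each), and limma's adjusted p was 0.352, 0.353, 0.351 and 0.352. At an unadjusted p under 0.05, 2 of the 6 were lower (Ppib probe 15796, p = 0.0442, and Manf probe 19966, p = 0.0465, in limma) and 0 were higher. Over all 13462 probes tested in this group, 6.25% were lower and 7.86% higher at that level, and 0% passed after adjustment. Without mouse 2 the mean of Hspa5 moved to −0.48 and that of Manf probe 19966 to −0.52, still below 0.

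Herpud1 and Asns stood lowest in 129SvJ/Iso liver. Herpud1 had −1.06, −2.14, −1.34 and −0.96 in mice 1, 2, 3 and 5, a mean of −1.38 ± 0.53 (SD, n = 4), or 0.385 of wild type. Asns had −1.18, −1.30, −1.02 and −1.93, a mean of −1.36 ± 0.40 (SD, n = 4), or 0.39 of wild type. Each mouse was below −0.96 for both genes. Of the 11 probes, 6 had a value in all 4 mice, and 6 of these 6 were below 0 in every mouse, beside 24.1% of all such probes in this group. Herpud1 and Asns are among the 6 and may have been chosen on these values, so nothing is read from that count.

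The strain comparison in liver is a description for the same reason. Asns differed by 1.42 in C3H minus 129SvJ/Iso, from means of 0.06 in C3H and −1.36 in 129SvJ/Iso. Herpud1 differed by 1.47, and its C3H mean rests on the 3 scattered mice given above. For Hspa5 the difference was −0.11, for Calr 0.14 and for Ppib probe 15796 −0.07, all smaller than the SD between mice of either strain, which does not show that the strains were alike. The probes of Manf gave unlike answers. Probe 5241 differed by −1.39, from −0.73 in C3H and 0.65 in 129SvJ/Iso, where 3 mice had a value. Probe 16089 differed by −0.37 and probe 19966 by 0.05.

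Herpud1 and Asns also differed in how well a dye swap repeated them. In C3H liver the median gap between the Cy5 and the Cy3 orientation of a mouse was 4.36 for Herpud1 and 1.02 for Asns, with the same sign in 0 of 3 and 0 of 5 mice, against 0.306 over all probes. Hspa5 (0.153), Hsp90b1 (0.261), Calr (0.208) and Manf probe 19966 (0.099) repeated better than that. So did Ppib probe 6363 (0.23, with the same sign in 4 of 5 mice), whose mean was above 0. Manf probe 5241 (0.326) was near it, while Manf probe 14323 (0.798), Ppib probe 15796 (0.894) and Manf probe 16089 (1.08, with the same sign in 0 of 4 mice) repeated worse. In 129SvJ/Iso liver the gap was 0.146 for Herpud1 and 0.372 for Asns, with the same sign in 4 of 4 mice for both, against 0.833 over all probes. The C3H side of the Herpud1 and Asns contrast is thus the less repeatable side.

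**Figure D2:**
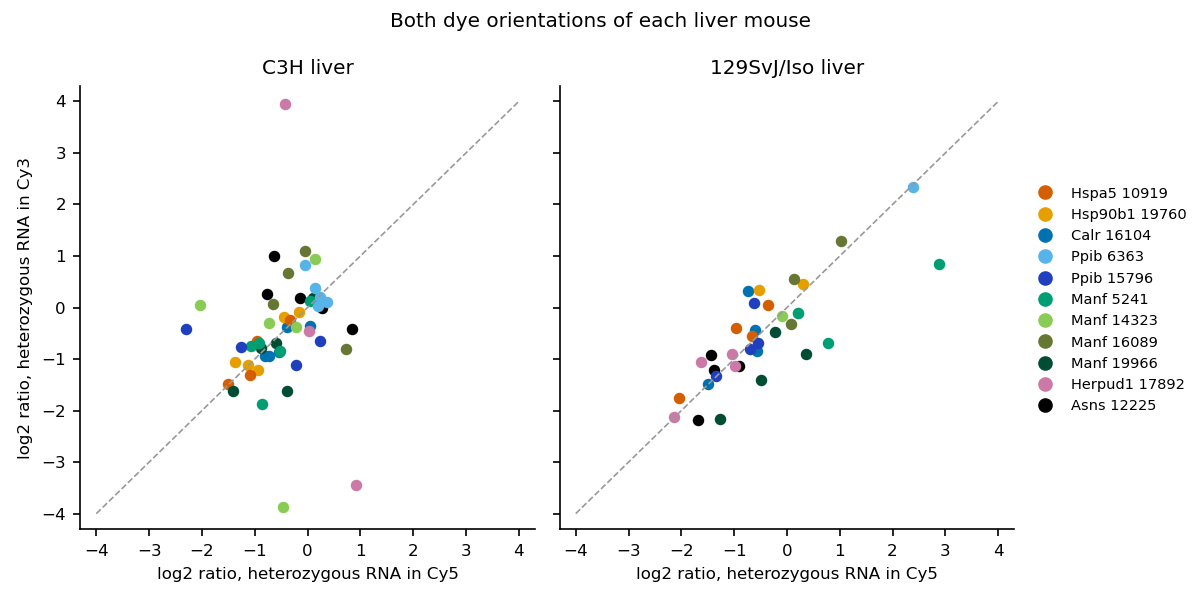
Ratio with the heterozygous RNA in Cy5 (horizontal axis) against the ratio with it in Cy3 (vertical axis), both log2, for each probe and mouse in C3H liver and in 129SvJ/Iso liver, with a dashed line of equality. Herpud1 and Asns lie near the line in 129SvJ/Iso liver (median gaps 0.146 and 0.372) and far from it in C3H liver (4.36 and 1.02).

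Probes of 1 gene were not equally usable in the strains. Ppib probe 6363 had a value on 39 of 39 C3H arrays with a median SD of 0.244 between arrays of a group, but on 28 of 47 arrays in 129SvJ/Iso with an SD of 2.53. Ppib probe 15796 was the reverse, with 24 of 39 C3H arrays (SD 1.23) and 47 of 47 in 129SvJ/Iso (SD 0.447). Herpud1 followed probe 15796, at 27 of 39 arrays in C3H (SD 2.05) and 47 of 47 in 129SvJ/Iso (SD 0.494), and Hsp90b1 followed probe 6363, at 39 of 39 (SD 0.448) and 36 of 47 (SD 1.5). Hspa5, Calr and Manf probe 19966 were usable on nearly every array of both strains. The part of this split in the strain differences was not tested.

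Mice of a liver group differed in their median over the member probes, though single probes departed from it. The median per mouse in C3H liver was −0.85, −0.13, −0.84, −0.82 and −0.31 for mice 1 to 5, and in 129SvJ/Iso liver −0.27, −1.33, −0.31 and −0.67 for mice 1, 2, 3 and 5. Hepatocyte markers were mostly below 0 as well, with 11 of 11 measured below 0 in C3H liver (median −0.351) and 8 of 10 in 129SvJ/Iso liver (median −0.796). Their per-mouse medians were −0.46, 0.04, −0.92, −0.67 and −0.15 in C3H and −0.53, −1.26, −0.36 and −0.46 in 129SvJ/Iso. The order of the mice matched that of the members only in part. In 129SvJ/Iso liver mouse 1 was nearest to 0 for the members but not for these markers. Adipocyte markers lay the other way, above 0 in 5 of 6 cases in C3H liver (median 0.254) and in 5 of 5 in 129SvJ/Iso liver (median 0.469), but not they alone. In C3H liver B cell markers were above 0 in 4 of 5 (median 0.113), neuron in 6 of 7 (0.129) and T cell in 3 of 8 (−0.0395). In 129SvJ/Iso liver the same lists had 3 of 4 (0.314), 3 of 4 (0.117) and 4 of 6 (0.267). Kupffer cell and macrophage markers were below 0 in 3 of 6 and 1 of 3 cases, plasma cell markers in 2 of 3 in each strain, pancreatic acinar markers in 6 of 7 (median −0.0822) in C3H and 5 of 6 (median −0.361) in 129SvJ/Iso, and erythroid markers in 4 of 4 (median −0.32) in C3H and 2 of 4 (median −0.289) in 129SvJ/Iso. Mouse 2 had the weakest shift of both chaperones and hepatocyte genes in C3H liver and the strongest of both in 129SvJ/Iso liver. The part of these cell types in the chaperone result was not tested, and in these whole organs fewer cells of a type and less RNA per cell cannot be told apart.

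**Figure D3:**
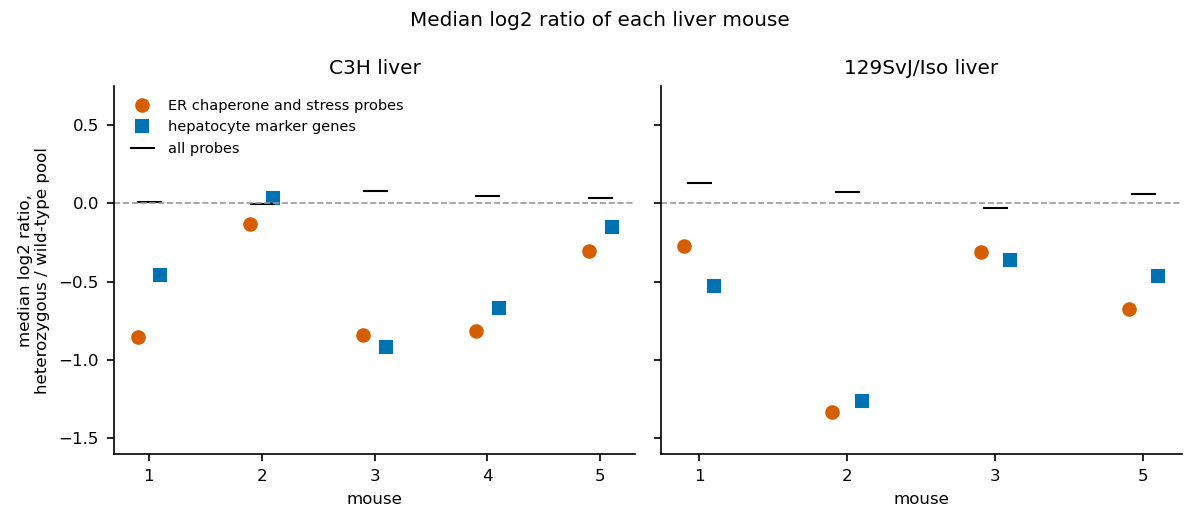
Median log2 ratio of heterozygous over wild-type RNA per mouse in C3H liver and 129SvJ/Iso liver, for the member probes, for hepatocyte marker genes and for all probes. The member medians run from −0.854 to −0.128 in C3H liver and from −1.33 to −0.27 in 129SvJ/Iso liver, and mice 2 and 5 lie nearest to 0 for members and hepatocyte markers alike in C3H liver.

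Other genes of the same pathways lay nearer to 0, which says nothing about the members, since those were chosen on this liver. Of 23 other ER folding and calcium genes measured in C3H liver, 17 were below 0 (median −0.181) and 6 were lower at an unadjusted p under 0.05 in limma, where 9.21% of all 8888 genes were lower, 4.7% higher and 0% passed after adjustment. Serp1, which steadies membrane proteins under stress, was at −0.52 ± 0.32, and Pdia4, a disulfide isomerase, at −0.44 ± 0.28, while the calcium pump Atp2a2 was at 0.02 ± 0.12 (SD, n = 5 each). Over all genes 47.6% were below 0, with a median of 0.0117.

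In 129SvJ/Iso liver 12 of 16 genes of that list were below 0 (median −0.139), and 0 were lower at an unadjusted p under 0.05 in limma. There, 7.18% of 6715 genes were lower, 7.42% higher and 0% passed after adjustment. Fkbp2, a prolyl isomerase of the ER, had the lowest mean among genes with a value in every mouse, −0.56 ± 0.28 (SD, n = 4).

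Genes of ER-associated degradation, the disposal route that Herpud1 serves, were below 0 in 12 of 14 cases in C3H liver (median −0.0849, 1 lower at an unadjusted p under 0.05) and in 6 of 11 in 129SvJ/Iso liver (median −0.131, 1 lower). Selenos, a membrane protein of that route, had −0.38 ± 0.30 in C3H (SD, n = 5) and −0.46 ± 0.12 in 129SvJ/Iso (SD, n = 4), with adjusted p of 0.343 and 0.425 in limma. It was below 0 in every mouse of both strains.

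The sensors and transcription factors of the response showed no common direction, with 6 of 11 below 0 in C3H liver (median −0.0341, 2 lower and 1 higher at an unadjusted p under 0.05) and 2 of 9 in 129SvJ/Iso liver (median 0.218, 0 in either direction). Xbp1, the transcription factor that Ire1 activates by splicing, had −0.19 ± 0.14 in C3H (SD, n = 5) and −0.68 ± 0.54 in 129SvJ/Iso (SD, n = 4). Ppp1r15a, which lifts the block on protein synthesis, had 0.29 ± 0.18 in C3H and −0.02 ± 0.72 in 129SvJ/Iso (SD over 5 and 4 mice). Atf4, above Asns in the pathway, had 0.42 ± 0.86 in 129SvJ/Iso liver (SD, n = 4).

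Targets of the amino acid response other than Asns were not lowered as a list. In C3H liver 8 of 20 were below 0 (median 0.0406, 1 lower at an unadjusted p under 0.05) and in 129SvJ/Iso liver 6 of 13 (median 0.0696, 2 lower). In 129SvJ/Iso liver the amino acid carrier Slc38a2 had −1.01 ± 0.45 and the carrier subunit Slc3a2 −0.72 ± 0.53 (SD, n = 4 each, adjusted p = 0.324 and 0.333 in limma), both below 0 in all 4 mice like Asns. Cth, which makes cysteine, had −0.89 ± 0.71 in C3H liver (SD, n = 5, adjusted p = 0.343 in limma).

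Lists outside the folding machinery of the ER lay below 0 as well. Genes of protein translocation into the ER were below 0 in 19 of 26 cases in C3H liver (median −0.16, 8 lower at an unadjusted p under 0.05) and in 19 of 22 in 129SvJ/Iso liver (median −0.374, 3 lower). Cytosolic heat shock genes were below 0 in 14 of 17 and 11 of 14 cases (medians −0.194 in C3H and −0.477 in 129SvJ/Iso), with 6 lower and 1 higher in C3H and 3 lower and 1 higher in 129SvJ/Iso at that p. Mitochondrial chaperones were below 0 in 7 of 9 and 6 of 8 cases (medians −0.14 in C3H and −0.436 in 129SvJ/Iso). After adjustment 0 genes of any list passed in limma.

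**Figure D4:**
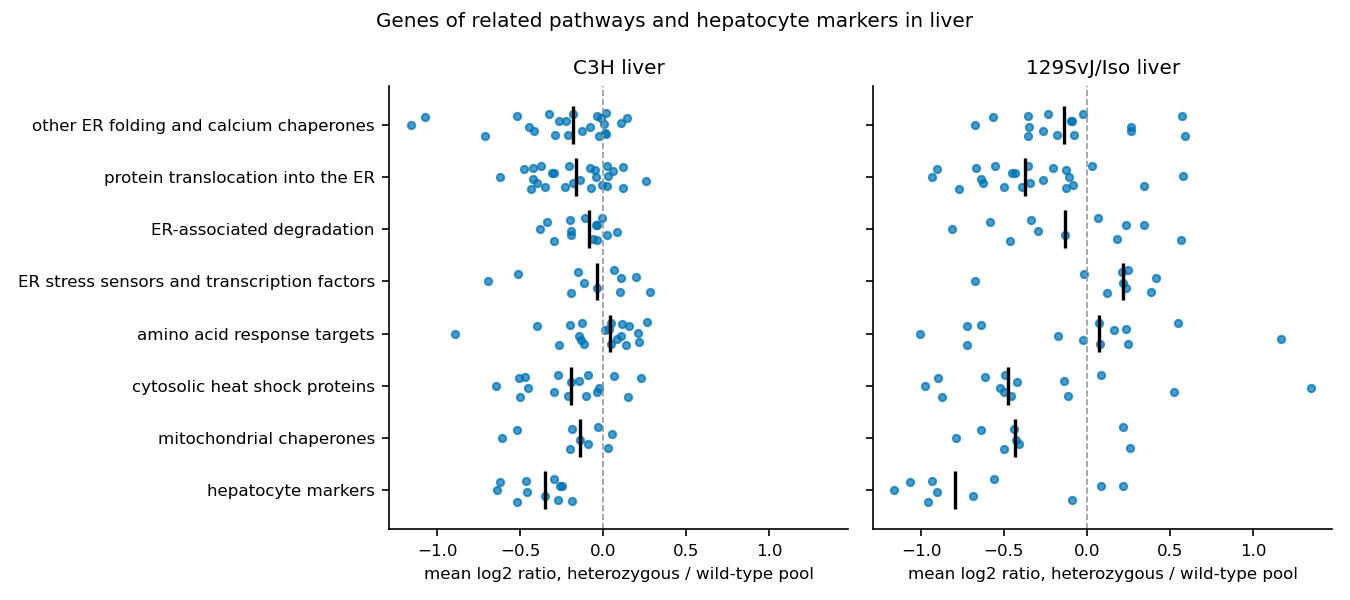
Mean log2 ratio of heterozygous over wild-type RNA of each gene, by list, in C3H liver and 129SvJ/Iso liver, with a black line at the list median. The members are not drawn (their median over genes in C3H liver was −0.543). Hepatocyte markers have the lowest line in both livers (−0.351 in C3H and −0.796 in 129SvJ/Iso). The lines of the translocation, cytosolic heat shock and mitochondrial lists lie between −0.14 and −0.477.

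Outside liver no member passed the test. In C3H thymus 9 probes were tested, their median was −0.0534, and 0 passed in limma (smallest adjusted p = 0.61), beside 0% of all probes. At an unadjusted p under 0.05, 1 was lower and 0 higher, where 5.31% and 2.82% of all probes were. That 1 was Ppib probe 6363, with −0.01, −0.31, −0.23, −0.30 and −0.21 in mice 1 to 5 (mean −0.21 ± 0.12, SD, n = 5, adjusted p = 0.61 in limma). It was below 0 in every mouse, the other side from its C3H liver values.

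In C3H thymus Hspa5 had −2.28, 0.00, −0.14 and −0.14 in mice 1 to 4, a mean of −0.64 ± 1.10 (SD, n = 4) that is carried by mouse 1. Without that mouse the mean was −0.09. Hsp90b1 had 0.00, −0.30, −0.25, −0.29 and −0.10, within 0.30 of wild type in all 5 mice. Calr was on both sides of 0 as well, from −0.38 to 0.14. The difference of these genes between liver and thymus was not tested, since the liver values chose them.

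In C3H spleen 8 probes were tested with a median of −0.0746, and in C3H brain 10 with a median of −0.0699. None passed in limma (smallest adjusted p = 0.803 and 0.578), beside 0% of all probes in each organ, and 0 were lower or higher at an unadjusted p under 0.05. The shares over all probes at that level were 2.86% lower and 3.08% higher in spleen and 5.03% lower and 3.73% higher in brain. Calr, for example, had −0.03, 0.33, −0.44, −0.16 and −0.08 in the spleens of mice 1 to 5, on both sides of 0.

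In 129SvJ/Iso spleen 10 probes were tested (median −0.0929) and in brain 9 (median 0.0946). None passed in limma (smallest adjusted p = 0.916 and 0.793), beside 0% of all probes, and 0 passed at an unadjusted p under 0.05 in either direction, where 2.35% of all probes were lower and 2.42% higher in spleen and 2.85% and 2.47% in brain. Asns had 0.40, 0.61, 0.46, 0.49 and 0.44 in the spleens of mice 1 to 5, a mean of 0.48 ± 0.08 (SD, n = 5, adjusted p = 0.916 in limma). All 5 spleens were above 0, opposite to the 4 livers. In brain Asns had 0.11, 0.03, 0.17 and 0.33 in mice 2 to 5. With the sign turned on the Cy5 arrays of brain, where the turning of ratios is uncertain, its mean was −0.181 and the member median −0.195.

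**Figure D5:**
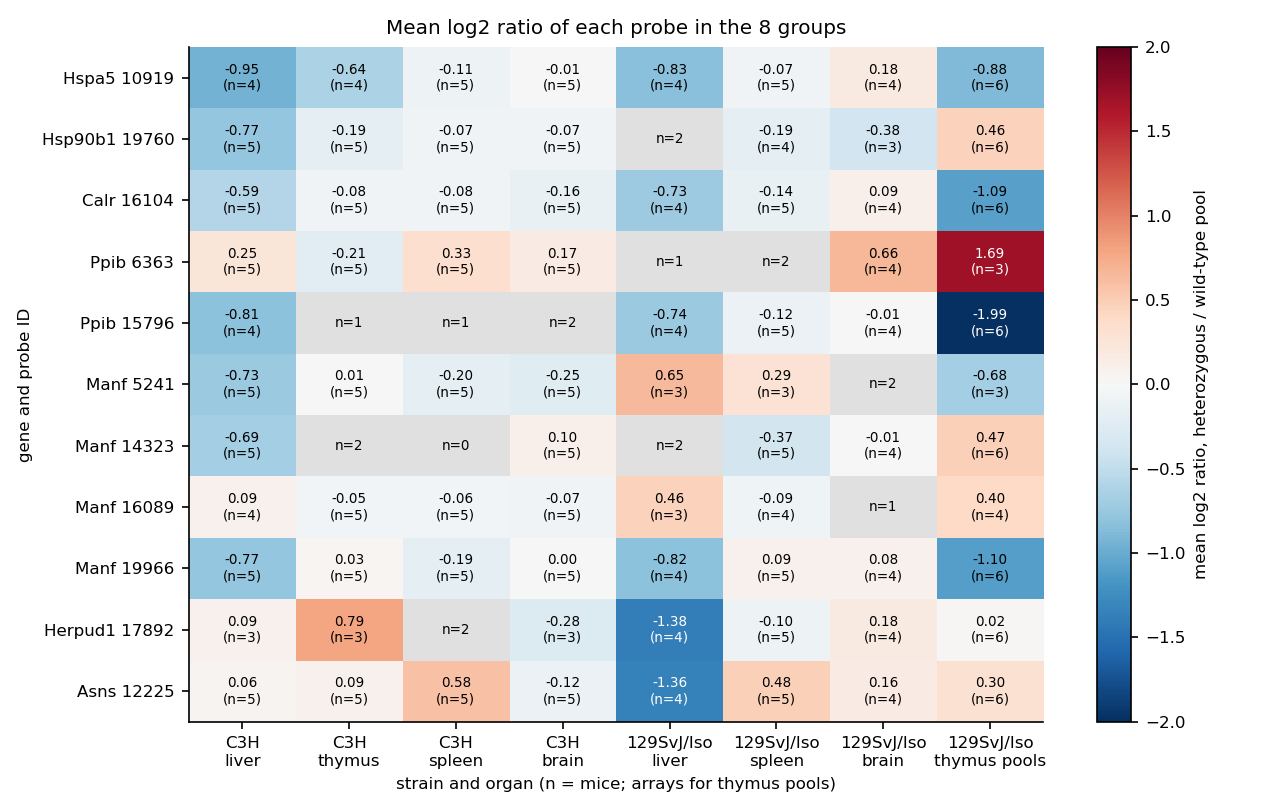
Mean log2 ratio of heterozygous over wild-type RNA for the 11 probes in the 8 groups of strain and organ, as a colour scale, with grey in the mouse groups where fewer than 3 mice had a value (the thymus pools show means over arrays). The lowest mean, −1.99, is that of Ppib probe 15796 in the 129SvJ/Iso thymus pools, where Ppib probe 6363 is at 1.69. Hspa5 in C3H thymus (−0.64) is carried by mouse 1.

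The differences between organs were tested within each strain. In C3H, where liver was left out, 0 of the 8 member probes tested passed in limma's F test over thymus, spleen and brain (smallest adjusted p = 0.63, Ppib probe 6363), beside 0.0496% of all probes after adjustment and 8.83% before it. In 129SvJ/Iso, over liver, spleen and brain, the 4 tested probes had adjusted p of 0.287 (Hspa5), 0.262 (Manf probe 19966), 0.352 (Calr) and 0.331 (Ppib probe 15796), beside 0% of all probes after adjustment and 16.4% before it. Before adjustment Hspa5 (p = 0.0415) and Manf probe 19966 (p = 0.0295) were under 0.05 in limma.

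In spleen and brain no strain difference of a member passed, and in liver none was tested. For the strain difference in spleen the smallest adjusted p in limma was 0.843 (Manf probe 19966, C3H minus 129SvJ/Iso −0.29, 95% interval −0.85 to 0.28), beside 0% of all probes after adjustment and 7.03% before it. In brain it was 0.594 (Ppib probe 6363, −0.49, −1.16 to 0.18), beside 0% and 9.9%. Hspa5 differed by −0.03 (−0.77 to 0.70) in spleen and by −0.19 (−0.69 to 0.31) in brain. The turning of ratios is uncertain in C3H spleen and 129SvJ/Iso brain. With the sign turned on the Cy5 arrays of C3H spleen and 129SvJ/Iso brain, the difference of Hspa5 was 0.13 (−0.58 to 0.85) in spleen and 0.07 (−0.41 to 0.55) in brain, and still 0 members passed in limma (smallest adjusted p = 0.693 in spleen and 0.0911 in brain).

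The 129SvJ/Iso thymus pools have no biological replicates and were described only. Ppib probe 15796 lay between −2.27 and −1.76 on the 6 arrays, with a mean of −1.99, or 0.252 of the wild-type pool. Calr (mean −1.09), Manf probe 19966 (−1.10) and Hspa5 (−0.88) were also below 0 on all 6 arrays. Other probes went the other way. Ppib probe 6363 had a mean of 1.69 over 3 arrays, all above 0, so the level of Ppib is unsettled here too. Hsp90b1 (0.462) and Manf probe 14323 (0.469) had means above 0 over 6 arrays, and Manf probe 16089 (0.398) over 4. Manf probe 5241 was at −0.682 over 3 arrays. Of 8 probes with 6 values 4 were below 0 throughout, where 22.5% of all 6819 such probes were, and the median over all probes was 0.239.

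In the same thymus pools Herpud1 was at 0.02 and Asns at 0.30, each with 3 of 6 arrays below 0, so the genes that were lowest in 129SvJ/Iso liver were not low there. T cell markers were below 0 in 5 of 6 cases (median −0.694, against 0.177 over all genes), and markers of plasma cells, which are rich in ER chaperones, were below 0 in 0 of 3. The other marker lists were mostly above 0 as well, with medians from 0.0982 (erythroid) to 1.13 (choroid plexus). The part of these cell types in the pool ratios was not tested.

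Some member probes varied together over mice and organs, and others did not. Over 13 mouse and organ values of 129SvJ/Iso, Hspa5 correlated with Ppib probe 15796 at r = 0.96, with Calr at 0.94, with Manf probe 19966 at 0.90, with Herpud1 at 0.87 and with Asns at 0.62. The remaining probes had fewer values. Hspa5 had r = −0.82 with Ppib probe 6363 (7 values) and −0.31 with Hsp90b1 (9 values). With Manf probes 5241, 16089 and 14323 it had −0.12, −0.09 and 0.195 (8, 8 and 11 values). Over the C3H values Hsp90b1 correlated with Calr at r = 0.73 (20 values) and at 0.14 without liver (15 values), and Hspa5 with Calr at 0.46 (18 values) and at 0.09 without liver (14 values). Values of 1 mouse share an animal and values of 1 organ share a wild-type pool, so these are descriptions of how the values lay, and the 129SvJ/Iso ones include liver and the brain ratios of uncertain sign.

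Among 16025 probes with enough C3H values, the named genes most like Hspa5 were Glrx (r = 0.90 over 16 values), Uqcrh (0.84 over 18) and Ndufs8 (0.82 over 17). The nearest to Hsp90b1 were Pnp (0.87 over 19), Atp5g3 (0.85 over 20) and Dcaf11 (0.84 over 19). Calr was closest to Fth1 (0.88), the ER isomerase Pdia4 (0.84) and Tubb4b (0.83), each over 20 values. Manf probe 5241 was closest to the stress transcription factor Xbp1 (0.82 over 20), then Eif2s3x (0.81 over 20) and Cryzl1 (0.80 over 18). These values include the livers that chose the genes and the spleens of uncertain sign, and the order depends on both. Without liver, 1 of the 3 genes named for Hspa5 (Uqcrh, Glrx and Ndufs8 then had r = 0.89, 0.87 and 0.85), 1 of the 3 for Manf and 0 for Hsp90b1 and Calr stayed among the nearest 3. With the sign turned on the Cy5 arrays of spleen, 1 stayed for Calr (Fth1 then had r = 0.87) and 0 for the other three, and Xbp1 had r = 0.44 with Manf probe 5241.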

How the data were processed

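RNA of heterozygous and pooled wild-type organs was compared on 2-colour cDNA arrays, which the authors scanned and read with GenePix software, with statistics in the TM4 suite. The values the authors deposited are log2 ratios per probe and array, whose normalization, centring and numerator are not given in the sources used here. They were used as deposited, and array medians lay between −0.247 and 0.314. Every array had 1 constant extreme value (size 14.88 to 17.54, on 19 to 618 spots), positive where the heterozygous RNA was in Cy5 and negative where it was in Cy3 (86 of 86 arrays), and these spots were treated as missing. Depth is not defined for arrays, and the number of mice and arrays limits the precision.

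For each mouse the mean of its Cy5 arrays and the mean of its Cy3 arrays were averaged, except mouse 1 in C3H spleen, which had 1 array, in Cy3, and so no dye swap. Probes with at least 3 mice were tested against 0 with limma 3.58.1 in R 4.3.3 over all probes of a group, two-sided, with Benjamini-Hochberg adjustment and a threshold of 0.05. Strain differences (C3H minus 129SvJ/Iso) and an F test over organs used the same package. These fits and the one against 0 were tested on simulated data, and the other steps were not. A mouse number marks the same animal across the organs of its strain. Same-animal deviations nevertheless correlated with medians between −0.0554 and 0.0316, so the mouse was not a block in the F test, and a block was run as an alternative. Gene values are means, within each mouse, of all probes of the gene with a value there, including probes not tested singly. A gene was tested where at least 3 mice had a value. In the thymus pools, gene values are means of the gene's probes with at least 4 usable arrays. Named list genes are the 2 lowest and 2 highest means in each liver among genes with a value in every mouse, and some of these are given in the other liver. The members and lists were chosen with earlier results of these data known. No table column was left without a sample (0 columns). Fixed alternatives covered the extreme values, centring, scaling, averaging, the filter on mice, a robust fit, the mouse as a block, each mouse left out, and the sign turned on Cy5 arrays of C3H spleen and 129SvJ/Iso brain, since the turning of ratios there is uncertain. The same turning in the strain and organ tests and in the ranking of like genes, and that ranking without liver, were added after seeing the data. RefSeq promoters matched 6 of 7 genes.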

Additional observations from a re-analysis of the deposited data

Results flagged for a closer look

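In 58 combinations of probe and group with 4 or 5 mice, 2 had a mouse far from the rest by Dixon's test, where chance alone gives about 1 in 20. Hspa5 in C3H thymus was at −2.28 in mouse 1 against −0.144 to 0.002 in the others, and its 2 arrays read −0.128 with the heterozygous RNA in Cy5 and −4.43 with it in Cy3. Ppib probe 6363 in C3H spleen was at 1.44 in mouse 3 against −0.032 to 0.143 in the others, and its 2 arrays read 2.862 in Cy5 and 0.021 in Cy3. The sign of Cy5 arrays is uncertain in that group, and with it turned the group mean was −0.384, against 0.331 as given.

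In 3 of 97 combinations of a probe and a pair of groups (12 pairs, of which 9 were organs of 1 strain), every mouse of 1 group lay on the other side of 0 from every mouse of the other. The share of such combinations over all probes was not counted, so nothing is read from the 3. Ppib probe 6363 differed by 0.457 between C3H liver (0.248) and C3H thymus (−0.209). Asns differed by −1.84 between 129SvJ/Iso liver (−1.36) and spleen (0.482), and by −1.52 between 129SvJ/Iso liver and brain (0.159). The brain mean of Asns was −0.181 with the sign turned on Cy5 arrays, so its side of 0 is uncertain. None of these differences was tested, since liver values may have chosen the genes.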

How the results depend on the processing

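No member probe that was counted passed an adjusted p under 0.05 in any tested group, strain difference or F test under any alternative run (121 of 121 values). The counts and smallest adjusted p here leave out all members in C3H liver. They also leave out Herpud1 and Asns in 129SvJ/Iso liver and in the F test that uses it. The smallest adjusted p of a member ranged over the alternatives between 0.0885 and 0.506 in 129SvJ/Iso liver, 0.451 and 0.779 in C3H thymus, 0.737 and 0.875 in C3H spleen, 0.302 and 0.754 in C3H brain, 0.87 and 0.964 in 129SvJ/Iso spleen and 0.218 and 0.942 in 129SvJ/Iso brain. The low end in 129SvJ/Iso liver came from a fit on single arrays in which the mouse was a random block. It called 108 probes over the whole array and 0 of the members other than Herpud1 and Asns, which were not looked at. With the mouse as a replicate block in the F test over organs, 0 members passed, and the smallest adjusted p was 0.688 in C3H and 0.456 in 129SvJ/Iso. Of the medians over member probes, 100 of 101 stayed within the spread between mice or arrays. The exception was 129SvJ/Iso brain, at −0.195 with the sign turned on Cy5 arrays, against 0.0946 as given. Leaving out 1 mouse put the C3H liver median between −0.756 and −0.569 and the 129SvJ/Iso liver median between −0.959 and −0.536. Keeping the extreme values moved Herpud1 in C3H liver to 2.16, so it has no usable mean there. Single means changed sign in 27 of 287 cases on leaving out a mouse and in 9 of 17 with the sign turned.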
